A study of Mus musculus with 24 samples.

Results

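The genes described here encode 9 mitochondrial enzymes or enzyme subunits of the citric acid cycle: Cs, Idh2, Idh3a, Idh3b, Idh3g, Ogdh, Sucla2, Suclg1 and Mdh2. They were taken by gene symbol, and all 9 were found among the 37041 genes listed in every library. None of their 216 values is listed at 0. The values run between 36.1 and 1746 FPKM, the number of sequenced fragments scaled to transcript length and to all mapped fragments of the library.

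The citric acid cycle runs in the mitochondrial matrix. It joins acetyl-CoA to oxaloacetate, oxidises the product step by step back to oxaloacetate, and passes the electrons to the respiratory chain as NADH and FADH2. Brown fat burns fatty acids and sugar to make heat, so its many mitochondria send a large flow of acetyl-CoA through the cycle. Muscle fibres also use the cycle to make ATP. Cs encodes citrate synthase, the entry enzyme. Idh3a, Idh3b and Idh3g encode the subunits of the NAD-dependent isocitrate dehydrogenase, with Idh3a as the catalytic one, while Idh2 encodes the NADP-dependent mitochondrial enzyme. Ogdh encodes the E1 subunit of the 2-oxoglutarate dehydrogenase complex. Suclg1 encodes the alpha subunit shared by both succinyl-CoA ligases, and Sucla2 the beta subunit of the form that makes ATP. Mdh2 encodes mitochondrial malate dehydrogenase, which closes the cycle.

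Polyadenylated mouse RNA was sequenced in 24 libraries, 3 in each of 8 groups. Of these, 18 were from C2C12 cells, a mouse myoblast line that fuses into myotubes. They expressed NFIA, which belongs to the nuclear factor I transcription factors, or were controls. Both kinds were collected on day 0 and on day 7, and on day 7 also with 10 µM forskolin for 4 h, a compound that activates adenylyl cyclase and so raises cAMP. The other 6 were from brown adipose tissue (BAT) of neonates labelled NFIA-KO and of wild-type (WT) neonates. The labels used here do not name the vector, the culture medium or what the control cells carried. They also leave out the deleted part of the gene, the sex and exact age of the neonates, and whether tissue was pooled. In each cell group, 1 library has no number in its title, here replicate 1. Its column header has an earlier date than those of the other 2, and all 6 tissue libraries have that earlier date. What the date marks is not given. The labels do not say that replicates came from separate cultures or animals, so p-values measure only the spread between these libraries.

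Promoters of 3 of the genes are printed. Of the 9, Sucla2 had the largest difference between tissue groups, Suclg1 the largest between NFIA and control cells at day 7, and Cs encodes the entry enzyme and passed the test in both comparisons, as did Sucla2 and Ogdh, which has several annotated starts. Each sequence is the RefSeq window of GRCm38.p6 from 250 bases before to 50 bases after the annotated start, 5′ to 3′ on the plus strand, which is the strand of all 3 genes. Capitals mark every match, on either strand, to the motifs searched.
Cs, chr10:128337477-128337776: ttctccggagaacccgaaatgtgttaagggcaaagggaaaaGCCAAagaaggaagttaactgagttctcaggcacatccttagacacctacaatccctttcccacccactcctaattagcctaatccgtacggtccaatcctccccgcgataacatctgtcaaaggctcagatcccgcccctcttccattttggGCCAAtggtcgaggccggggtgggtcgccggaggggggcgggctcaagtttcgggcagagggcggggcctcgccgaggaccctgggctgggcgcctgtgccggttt
Sucla2, chr14:73552536-73552835: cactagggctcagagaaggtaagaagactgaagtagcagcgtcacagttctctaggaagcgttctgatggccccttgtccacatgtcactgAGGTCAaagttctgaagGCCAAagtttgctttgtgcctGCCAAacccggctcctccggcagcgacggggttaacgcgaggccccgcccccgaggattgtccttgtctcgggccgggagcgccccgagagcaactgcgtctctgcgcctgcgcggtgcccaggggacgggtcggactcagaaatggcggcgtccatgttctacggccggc
Suclg1, chr6:73248255-73248554: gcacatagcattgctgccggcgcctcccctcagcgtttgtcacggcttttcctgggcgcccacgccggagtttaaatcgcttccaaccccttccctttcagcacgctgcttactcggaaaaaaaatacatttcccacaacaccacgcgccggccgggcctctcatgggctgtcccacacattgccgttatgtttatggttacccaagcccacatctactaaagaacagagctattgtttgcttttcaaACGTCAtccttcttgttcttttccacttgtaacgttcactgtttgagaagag

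The motifs were searched on both strands. TTGGC is the core that nuclear factor I proteins bind. The nuclear receptor core is AGGTCA, and the longer form bound by estrogen-related receptors, AAGGTCA, contains it. The cAMP response element has the core TGACGT. The core of the site of nuclear respiratory factor NRF1 is TGCGCA. A window was found for 8 of the 9 genes, with several starts for Ogdh, 13 windows in all, some of which overlap. TTGGC was found in 8 of the 13 windows (Cs, Idh3b, Ogdh, Sucla2 and Mdh2), and in 46.71% of the 32851 promoters of the same length. AGGTCA was found in 3 windows (Idh3g, Ogdh and Sucla2) and in 16.26% of all promoters, and AAGGTCA in 1 window (Ogdh) and in 4.72%. TGACGT was found in 6 windows (Idh3g, Ogdh, Suclg1 and Mdh2) and in 7.51%, and TGCGCA in 3 (Ogdh and Mdh2) and in 7.76%. In the Suclg1 window the one match, ACGTCA at position -2 from the start, is TGACGT on the minus strand. The Cs window held TTGGC on the minus strand at positions -209 and -56, and the Sucla2 window at -142 and -121 with AGGTCA on the plus strand at -159. A match is a run of letters and not evidence of binding.

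In the files' own build, mm9, the 9 genes lie on 9 chromosomes. Cs spans 127774888 to 127799535 on chromosome 10, Idh2 87239732 to 87260278 on chromosome 7, and Idh3a 54434288 to 54452468 on chromosome 9. Idh3b spans 130100166 to 130110283 on chromosome 2, Idh3g 71024302 to 71032236 on the X chromosome, and Ogdh 6191636 to 6256645 on chromosome 11. Sucla2 spans 73919671 to 73995949 on chromosome 14, Suclg1 73198376 to 73226905 on chromosome 6, and Mdh2 136254350 to 136266268 on chromosome 5. Each value covers a whole gene, all exons together.

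Nfia itself was checked first. It had 3585, 3256 and 3189 FPKM in NFIA cells at day 7, against 2.23, 0.81 and 0.94 FPKM in control cells. In tissue the gene went against the label: it had 44.6, 40.1 and 39.4 FPKM in the libraries labelled NFIA-KO and 24.3, 32.8 and 32.6 FPKM in WT libraries (0.47 ± 0.15 log2 units, adjusted p = 0.0973 by the test below). A gene-level value counts exons outside a deleted part, so it may check nothing here, but every direction in tissue below rests on the label alone. Summed FPKM per library ran between 762822 and 1575522, with 17370 to 21503 genes above 0. Read totals are not known, so no counting error can be given.

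Other cell types moved with the groups. The summed FPKM of 14 skeletal muscle markers was 3235, 3803 and 4510.3 in NFIA cells at day 7, against 29225, 29173 and 30196 in control cells, and all 14 genes were lower in NFIA cells. The sum of 7 general adipocyte markers was 25049.7, 25585 and 23300.5, against 90.3, 90.5 and 88.3 in control cells. NFIA cells at day 7 thus carried adipocyte markers beside a lower level of muscle markers, and control cells carried the muscle markers of myotubes. Ucp1, the uncoupling protein that defines brown fat, was under 1 FPKM in all 6 of these libraries. Of the 7 brown adipocyte markers tested, 4 were called higher in NFIA cells at day 7 and 2 lower, against 26.1% higher and 29.4% lower of all genes tested. Among them, Cidea, a lipid droplet protein, averaged 48.0 ± 3.68 FPKM in NFIA cells and 0.14 ± 0.0361 FPKM in control cells (SD, n = 3), while Dio2, which activates thyroid hormone, averaged 2.39 ± 0.372 FPKM in NFIA cells and 13.1 ± 0.835 FPKM in control cells. In tissue Ucp1 had 1594, 1674 and 1445 FPKM in libraries labelled NFIA-KO and 7239.6, 4753 and 4073 FPKM in WT libraries (higher in WT), so the tissue held RNA of brown adipocytes in both groups. The muscle sum in tissue was 2221, 352 and 1187 in libraries labelled NFIA-KO, against 68.7, 74.0 and 165 in WT libraries. The part of these differences in the results below was not tested. In such bulk RNA, fewer cells of a type and less RNA per cell cannot be told apart.

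All 9 genes were at their highest in brown fat and at their lowest in one of the cell groups. The summed FPKM of the 9 was 6789, 7506 and 6799 in tissue labelled NFIA-KO and 10228, 9645 and 8304 in WT tissue. In cells it was 1504, 1750.4 and 1635 in NFIA cells at day 7, against 924, 1024 and 1049 in control cells at day 7, and 830.3, 885 and 886 in NFIA cells at day 0, against 851, 925 and 987 in control cells at day 0. Tissue and cells are separate collections and were not tested against each other. FPKM is per length, so levels can be set side by side between genes. Mdh2 was the most abundant of the 9 in all 6 cell groups. In WT tissue Cs (1599 ± 135 FPKM, SD, n = 3), Sucla2 (1509.5 ± 139) and Idh3a (1470.3 ± 122) had the highest means. Idh2 was the lowest of the 9 in tissue, at 238 ± 33.7 FPKM in libraries labelled NFIA-KO and 251 ± 58.6 FPKM in WT libraries.

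The order of the 8 groups was alike for most of the genes. For Cs, Idh3a, Idh3b, Idh3g, Ogdh, Suclg1 and Mdh2, both NFIA day 7 groups stood above every other cell group and below both tissue groups, with no overlap of libraries at either border. Within that block the untreated and forskolin groups overlapped, except for Cs. Sucla2 was in the same places, but its NFIA day 7 libraries overlapped those of forskolin-treated control cells. Idh2 was ordered otherwise: its lowest means were 58.3 FPKM in forskolin-treated and 65.9 FPKM in untreated NFIA cells at day 7, and all neighbouring cell groups overlapped. Over the 8 group means of log2(FPKM + 1), the Pearson correlation of each gene with the mean of the other 8 was 0.93 or more for every gene but Idh2, which had 0.79. Over the 6 cell groups it was -0.93 for Idh2, 0.69 for Sucla2 and 0.90 or more for the others. These points share libraries and controls and are a description.

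**Figure D1:**
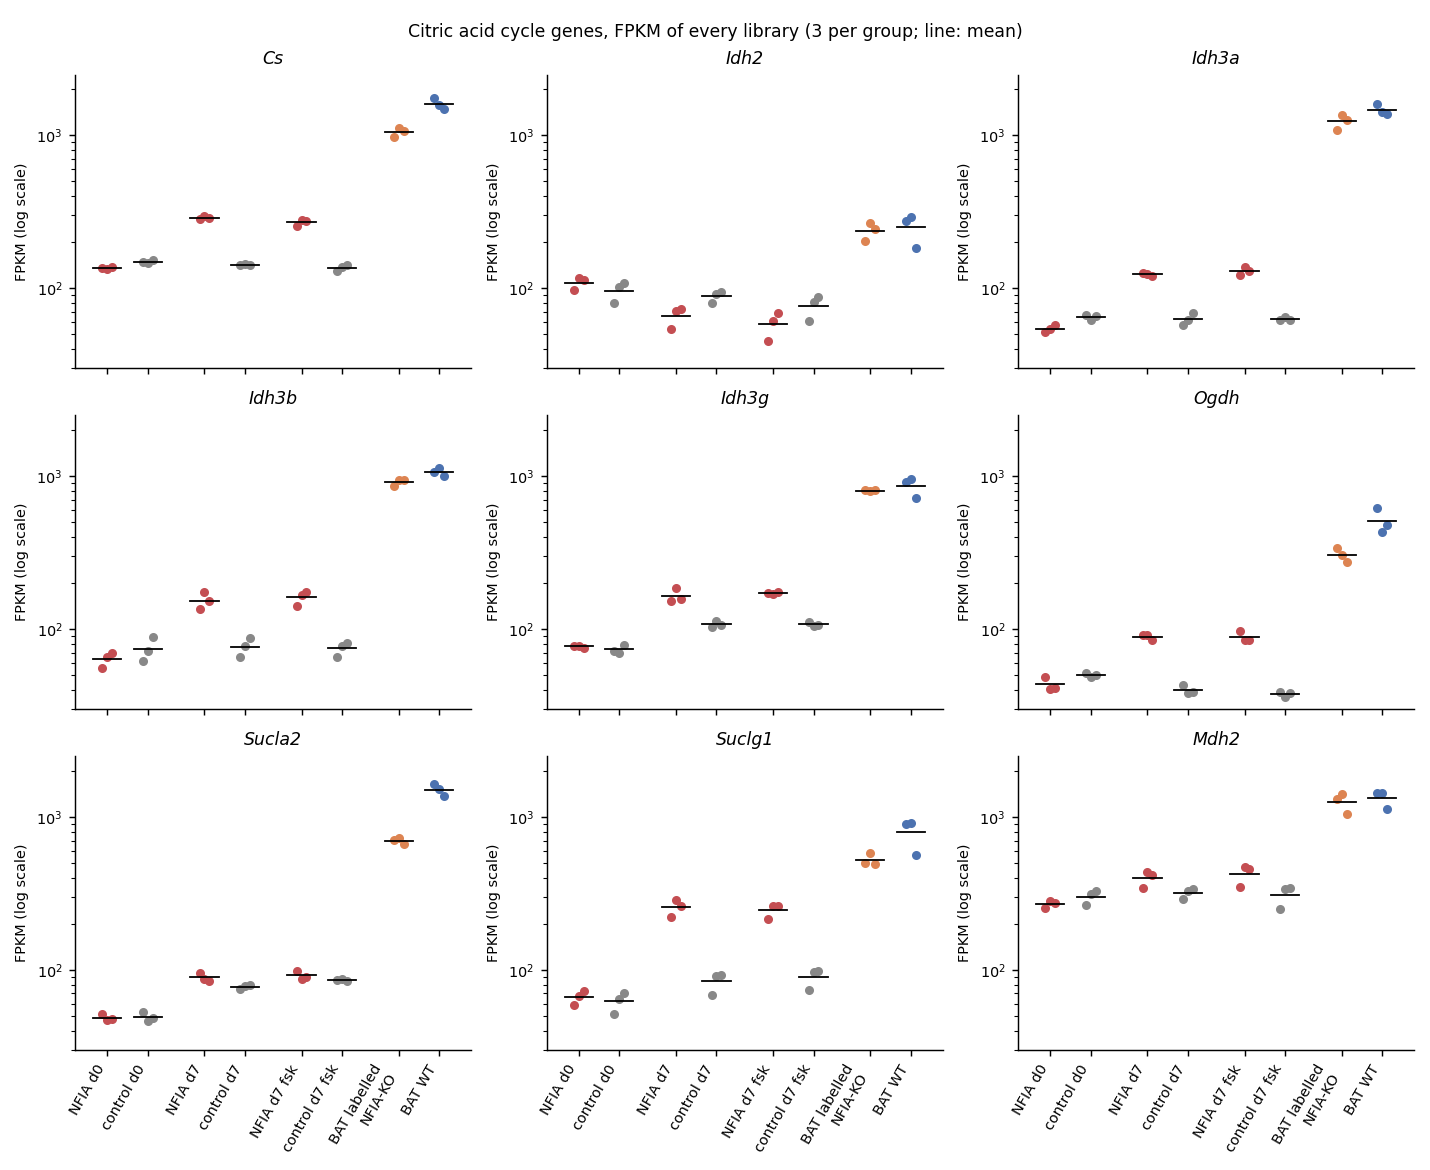
FPKM on a log axis of each of the 9 genes in all 24 libraries, 3 points per group with their mean as a line, NFIA-expressing beside control C2C12 cells at day 0 (d0), day 7 (d7) and day 7 with forskolin (d7 fsk), and BAT labelled NFIA-KO beside WT BAT. NFIA cells at day 7 stand above control cells for 8 genes and below for Idh2, and tissue stands above cells throughout.

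At day 7, 7 of the 9 genes were higher in NFIA cells than in control cells and 1, Idh2, was lower. The mean FPKM of Suclg1 in NFIA cells was 3.06 times that in control cells, and those of Ogdh, Cs, Idh3b and Idh3a were 2.23, 2.03, 2.0 and 1.97 times. Among all 14351 genes tested, 26.1% were called higher and 29.4% lower in this comparison, by limma's moderated test on log2(FPKM + 1) at an adjusted p under 0.05. The median difference of the 9 genes was 0.97 log2 units, against -0.03 over all genes tested. Differences below are log2 fold changes with their standard error from that fit.

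Cs, at the entry of the cycle, had 282, 297 and 288 FPKM in NFIA cells at day 7, against 142, 143 and 142 FPKM in control cells. The 3 libraries of each group lie close together and far from the other group. The difference was 1.02 ± 0.06 (adjusted p = 2.04e-09). A near-identical gene, Csl, averaged 4.14 FPKM in NFIA and 1.95 FPKM in control cells, so reads could be split between both copies and the level of each is uncertain.

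The 3 subunits of the NAD-dependent isocitrate dehydrogenase rose together, the gamma subunit least. Idh3a, the catalytic subunit, had 126, 123 and 119.9 FPKM in NFIA cells and 57.3, 62.0 and 68.5 FPKM in control cells, a difference of 0.97 ± 0.07 (adjusted p = 2.03e-08). Idh3b had 135, 174 and 152 FPKM in NFIA cells and 65.5, 77.2 and 87.4 FPKM in control cells (0.99 ± 0.15, adjusted p = 4.06e-05). Its libraries scattered more, but no control library reached the NFIA ones. Idh3g, a regulatory subunit, had 153, 186 and 156 FPKM in NFIA cells and 103, 112 and 107 FPKM in control cells (0.61 ± 0.08, adjusted p = 6.82e-06).

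Idh2, which oxidises the same substrate while making NADPH, went the other way. It had 53.8, 70.5 and 73.3 FPKM in NFIA cells and 79.8, 91.8 and 95.1 FPKM in control cells. The groups do not overlap, but the lowest control library lies close to the highest NFIA library. The difference was -0.44 ± 0.18, just past the threshold (adjusted p = 0.0495). The call was lost with no filter on low values (adjusted p = 0.0715) and without NFIA replicate 1 or 2 or control replicate 2 or 3 (0.0595 to 0.202). Over all 13 alternatives its adjusted p ran between 5.54e-05 and 0.202. Replicate 1, with the earlier header date, was the lowest Idh2 library in every cell group. The same was true of Idh3b, Suclg1 and Mdh2. The main fit has no term for this shared offset, so it is part of their standard errors.

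Ogdh, the first subunit of the complex that makes succinyl-CoA, had 92.0, 91.2 and 84.7 FPKM in NFIA cells and 43.1, 38.4 and 38.8 FPKM in control cells. Every NFIA library was above every control library, by a difference of 1.14 ± 0.08 (adjusted p = 1.08e-08).

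The subunits of succinyl-CoA ligase, which turns succinyl-CoA into succinate and makes ATP or GTP, did not move alike. Suclg1, the shared alpha subunit, had 223, 287 and 263 FPKM in NFIA cells and 68.3, 91.6 and 93.0 FPKM in control cells, the largest difference of the 9 at 1.61 ± 0.16 (adjusted p = 5.47e-07). Sucla2, its ATP-forming partner, had 95.2, 87.6 and 84.5 FPKM in NFIA cells and 74.4, 78.8 and 79.8 FPKM in control cells. That is a small rise, with the lowest NFIA library just above the highest control library (0.19 ± 0.07, adjusted p = 0.032). The Sucla2 call was lost after median-of-ratios rescaling (0.105) and quantile normalization (0.402). It was also lost without replicate 1 or 2 of NFIA or of control cells (0.0552 to 0.132), and its adjusted p ran between 0.00503 and 0.402 over 13 alternatives.

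Mdh2, at the last step, had 345, 434 and 414 FPKM in NFIA cells and 291, 329 and 337 FPKM in control cells. The NFIA libraries were the higher ones, but the difference of 0.31 ± 0.15 did not pass the test (adjusted p = 0.0943, 95% interval -0.01 to 0.63). The 6 larger increases, of Cs, Idh3a, Idh3b, Idh3g, Ogdh and Suclg1, passed the test under every alternative run.

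**Figure D2:**
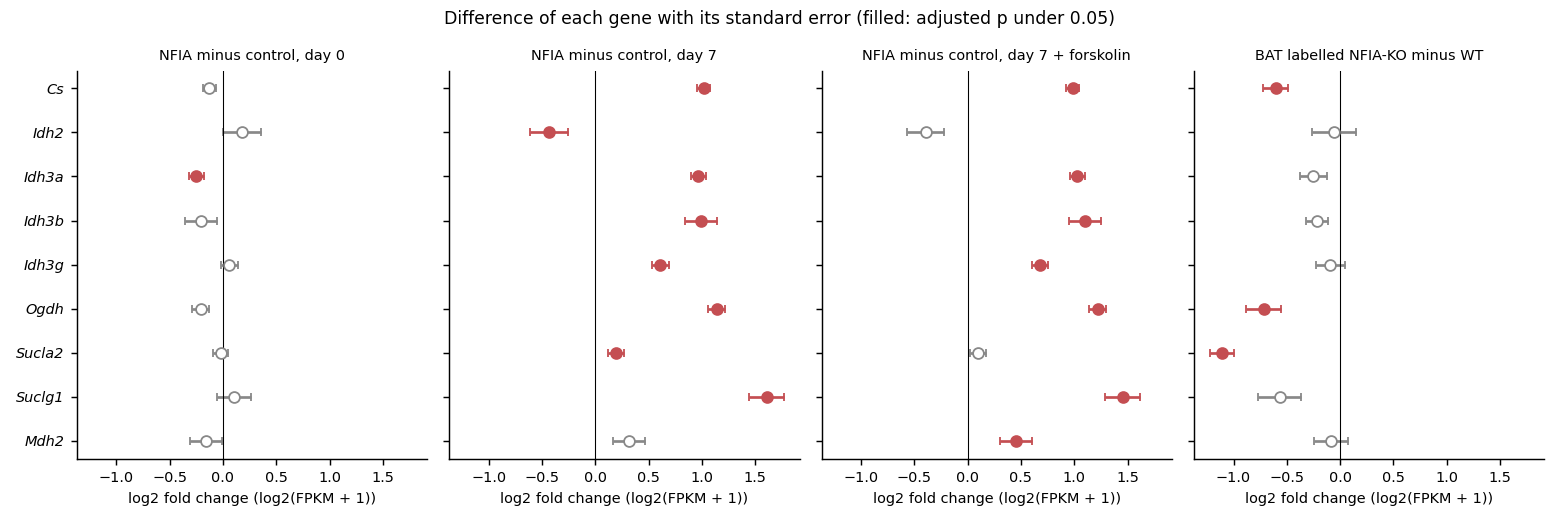
Log2 fold change of each gene with its standard error in 4 comparisons, NFIA minus control cells in 3 states and BAT labelled NFIA-KO minus WT BAT; filled points have an adjusted p under 0.05. At day 7 the points run between -0.44 for Idh2 and 1.61 for Suclg1, and in tissue between -1.11 for Sucla2 and -0.06 for Idh2.

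At day 0, 0 of the 9 genes were called higher in NFIA cells and 1 lower, against 12.1% higher and 9.07% lower of all genes tested. An unadjusted p under 0.05 was found for 2 of the 9, a share not counted over all genes. The one called gene was Idh3a, with 51.8, 53.9 and 57.6 FPKM in NFIA cells and 66.8, 61.7 and 66.0 FPKM in control cells (-0.25 ± 0.07, adjusted p = 0.0238). The call was lost with only the libraries numbered in their titles (0.056) and without NFIA replicate 1 or 2 or control replicate 1 or 3 (0.0657 to 0.0945). Cs had 137, 134 and 138 FPKM in NFIA cells and 149, 145 and 152 FPKM in control cells. Ogdh had 48.4, 40.6 and 41.1 FPKM in NFIA cells and 51.8, 48.7 and 50.1 FPKM in control cells. For both, the NFIA libraries lay below the control ones without passing the test (adjusted p = 0.189 and 0.0859). With the date in the column header as a term, Cs, Idh3a, Idh3b and Ogdh were called lower, and with only the libraries numbered in their titles Ogdh and Mdh2 were. Calls rose among all genes too, to 5303 with that term (57.0% of them higher) and 3997 with those libraries, against 3036 in the main fit. The libraries of the other 6 genes overlapped, with differences between -0.21 (Idh3b) and 0.18 (Idh2). The muscle marker sum at day 0 was 24.2, 25.7 and 27.4 in NFIA cells and 46.4, 55.5 and 55.5 in control cells.

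The NFIA effect at day 7 exceeded that at day 0 for 6 genes, by the interaction term of the same fit, where 19.8% of all genes were called higher and 25.5% lower. The difference between the effects was 1.5 ± 0.23 for Suclg1, 1.35 ± 0.11 for Ogdh, 1.22 ± 0.10 for Idh3a and 1.20 ± 0.21 for Idh3b. It was 1.14 ± 0.09 for Cs and 0.55 ± 0.11 for Idh3g, with adjusted p between 5.59e-08 (Cs) and 0.000734 (Idh3g). Idh2 (-0.62 ± 0.25, adjusted p = 0.0592), Mdh2 (0.47 ± 0.21, 0.0877) and Sucla2 (0.22 ± 0.10, 0.101) did not pass.

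Between day 7 and day 0 in control cells, 3 of the 9 genes were called higher and 1 lower, against 24.9% higher and 23.9% lower of all genes tested, a share near the background. All 14 muscle markers were called higher. Idh3g rose, with 103, 112 and 107 FPKM at day 7 and 72.3, 69.9 and 79.1 FPKM at day 0 (0.54 ± 0.08, adjusted p = 3.94e-05). Sucla2 rose too, with 74.4, 78.8 and 79.8 FPKM at day 7 and 52.9, 46.5 and 48.6 FPKM at day 0 (0.65 ± 0.07, adjusted p = 3.03e-06). Suclg1 also passed, with 68.3, 91.6 and 93.0 FPKM at day 7 and 51.2, 64.4 and 70.5 FPKM at day 0, but the groups overlap (0.44 ± 0.16, adjusted p = 0.0375). Its call was lost with no filter (0.055) and without replicate 1 or 2 of day 0 or 2 or 3 of day 7 (0.0561 to 0.156). Ogdh fell, with 43.1, 38.4 and 38.8 FPKM at day 7 and 51.8, 48.7 and 50.1 FPKM at day 0 (-0.32 ± 0.08, adjusted p = 0.00454). The median of the 9 was 0.05, against 0.02 over all genes. Quantile normalization moved that median of all genes to -0.11 and the share of called genes that were higher to 39.6%, against 51.0% as deposited. It called 3 of the 9 higher and 4 lower, and 7524 of all genes, against 7013 as deposited.

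In NFIA cells the same interval moved all 9: 8 were called higher and Idh2 lower, against 27.5% higher and 29.4% lower of all genes tested. The median of the 9 was 1.08, against -0.01 over all genes. Suclg1 had 223, 287 and 263 FPKM at day 7 and 58.9, 67.8 and 72.8 FPKM at day 0, the largest rise (1.94 ± 0.16, adjusted p = 6.87e-08). Idh3b (1.25), Idh3a (1.16), Idh3g (1.09), Cs (1.08) and Ogdh (1.03) gained 1 log2 unit or more. Sucla2 had 95.2, 87.6 and 84.5 FPKM at day 7 and 51.3, 46.8 and 47.6 FPKM at day 0 (0.86 ± 0.07), and Mdh2 gained 0.56 ± 0.15. Idh2 had 53.8, 70.5 and 73.3 FPKM at day 7 and 98.0, 116 and 113 FPKM at day 0, a fall without overlap (-0.73 ± 0.18, adjusted p = 0.00261). These comparisons share libraries with those of NFIA against control cells, so their values stand side by side and are not independent.

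Forskolin for 4 h changed none of the 9 by the test, while Nfia itself had 9876, 10448 and 9232 FPKM in treated NFIA cells, against 3585, 3256 and 3189 FPKM in untreated ones. In control cells limma called 0 of the 9 and 3.97% of all genes, and 0 of the 9 had an unadjusted p under 0.05. In NFIA cells it called 0 of the 9 and 32.6% of all genes, again with 0 of the 9 at an unadjusted p under 0.05. No other tool was run. The fitted differences ran between -0.22 (Idh2) and 0.14 (Sucla2) in control cells and between -0.18 (Idh2) and 0.09 (Mdh2) in NFIA cells. Without passing limma's test, treated Cs libraries lay below untreated ones without overlap in control (adjusted p = 0.87) and NFIA cells (0.267). Treated Sucla2 libraries lay above untreated ones in control cells (adjusted p = 0.496 by limma). Shares of all genes without overlap, or at such an unadjusted p, were not counted. Of the 95% intervals in NFIA cells that of Idh2 was the widest, -0.56 to 0.20, and that of Cs was -0.23 to 0.04. In NFIA cells, quantile normalization called 4 lower (Cs, Idh2, Suclg1 and Mdh2), the date in the column header as a term called Idh2 lower, and the libraries with a number in their title alone called Mdh2 higher. Over all genes these fits called 4212, 6992 and 6612, in that order, against 4681 in the main fit. The NFIA effect with forskolin minus that without it was called for 0 of the 9, against 20.1% of all genes, with 0 at an unadjusted p under 0.05.

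Under forskolin 7 of the 9 were called higher in NFIA than in control cells and 0 lower, against 28.7% higher and 32.9% lower of all genes. By limma 8 of the 9 had an unadjusted p under 0.05, a share not counted over all genes, so it does not set the 9 apart. Cs had 254, 278 and 277 FPKM in NFIA cells and 129, 137 and 141 FPKM in control cells (0.99 ± 0.06). Suclg1 had 215, 262 and 259.8 FPKM in NFIA cells and 73.6, 96.2 and 98.8 FPKM in control cells (1.45 ± 0.16). Both pairs of groups are far apart. Ogdh rose by 1.22 ± 0.08, Idh3b by 1.10 ± 0.15, Idh3a by 1.03 ± 0.07 and Idh3g by 0.68 ± 0.08, all without overlap. Mdh2 had 347, 470.4 and 459 FPKM in NFIA cells and 249, 339 and 343 FPKM in control cells and was called here (0.46 ± 0.15, adjusted p = 0.0162). The Mdh2 call was lost without NFIA replicate 2 or 3 or control replicate 1 (0.0628 to 0.0894). Sucla2 (0.10 ± 0.07, adjusted p = 0.26) and Idh2 (-0.40 ± 0.18, adjusted p = 0.0667) did not pass. The muscle sum was 2376, 3876 and 4548 in NFIA cells and 17453, 33879 and 32189 in control cells under forskolin.

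Ratios of partner genes within a library do not depend on its scaling. An offset of single genes, such as that of replicate 1 above, does not cancel in them. Suclg1 over its beta subunits was lowest in replicate 1 in every cell group. With 3 libraries against 3 an exact permutation test cannot go below p = 0.1, so no ratio can pass, and 20 such tests were made. Ratios whose libraries did not overlap had an exact permutation p = 0.1 (two-sided, adjusted p = 0.154). Idh2 over Idh3a sets the NADP-dependent against the NAD-dependent enzyme. It was 0.427, 0.572 and 0.611 in NFIA cells at day 7 and 1.39, 1.48 and 1.39 in control cells, a difference of -1.42 log2 units. In tissue it was 0.186, 0.199 and 0.192 in libraries labelled NFIA-KO and 0.171, 0.207 and 0.133 in WT libraries, which overlap. Idh3a thus exceeded Idh2 in NFIA cells at day 7 and in tissue, while Idh2 exceeded Idh3a in untreated control cells and at day 0.

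The RNAs of the 2 partner subunits of Idh3a kept different proportions. Idh3b over Idh3a was 1.07, 1.41 and 1.27 in NFIA cells at day 7 and 1.14, 1.25 and 1.28 in control cells, and the libraries overlapped in all 4 comparisons. Idh3g over Idh3a was 1.21, 1.51 and 1.30 in NFIA cells and 1.80, 1.81 and 1.56 in control cells, without overlap. At day 0 its order was the other way, with 1.5, 1.44 and 1.31 in NFIA cells and 1.08, 1.13 and 1.20 in control cells.

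Succinyl-CoA ligase joins the alpha subunit to Sucla2, for ATP, or to Suclg2, for GTP. Sucla2 exceeded Suclg2 in every library. Their ratio was 7.22, 6.91 and 6.41 in NFIA cells at day 7 and 11, 11.6 and 11.7 in control cells. It was highest in WT tissue: 30.7, 26.1 and 22.3 in libraries labelled NFIA-KO, against 56.0, 55 and 55.8 in WT libraries, a difference of -1.09 log2 units. The alpha subunit over the sum of both beta subunits was 2.05, 2.86 and 2.69 in NFIA cells at day 7 and 0.842, 1.07 and 1.07 in control cells. In tissue that ratio was 0.682, 0.773 and 0.714 in libraries labelled NFIA-KO and 0.54, 0.593 and 0.404 in WT libraries. RNA of the alpha subunit thus exceeded the summed RNA of the beta subunits in NFIA cells at day 7 and was below it in all 6 tissue libraries. Protein was not measured.

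**Figure D3:**
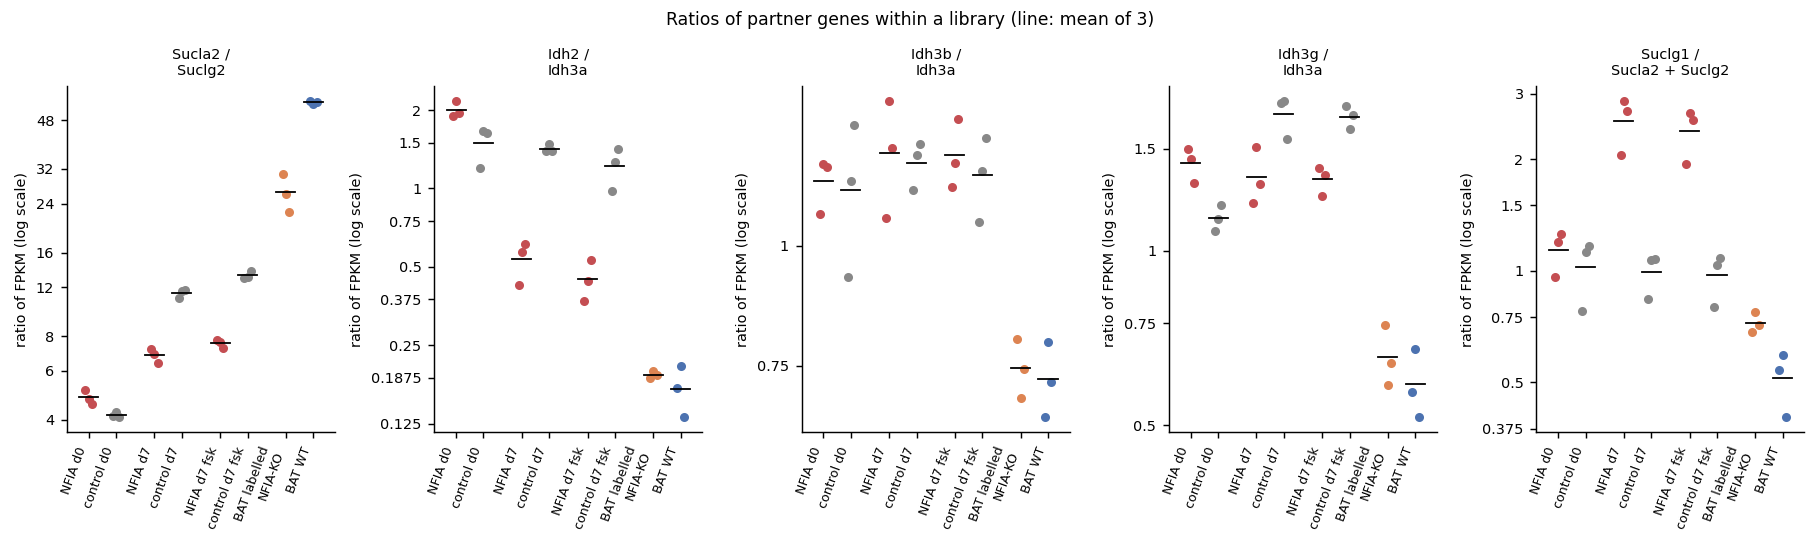
Ratios of the FPKM of partner genes within each library on log axes, 3 points per group with their mean as a line. Sucla2 over Suclg2 is highest in WT BAT, near 55.6, and Idh2 over Idh3a drops to 0.427 to 0.611 in NFIA cells at day 7, against 1.39 to 1.48 in control cells.

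The make-up of the summed FPKM shows the same contrasts. Suclg1 made up 15.8% ± 0.841 of the sum in NFIA cells at day 7 and 8.40% ± 0.875 in control cells (SD, n = 3). Idh2 made up 4.03% ± 0.451 in NFIA cells at day 7 and 8.89% ± 0.227 in control cells. Mdh2 made up 24.3% ± 1.25 in NFIA cells at day 7 and 31.9% ± 0.367 in control cells. Sucla2 made up 9.93% ± 0.427 in tissue labelled NFIA-KO and 16.1% ± 0.385 in WT tissue. The share of Cs stayed between 13.9% and 17.8% on average in the 8 groups.

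**Figure D4:**
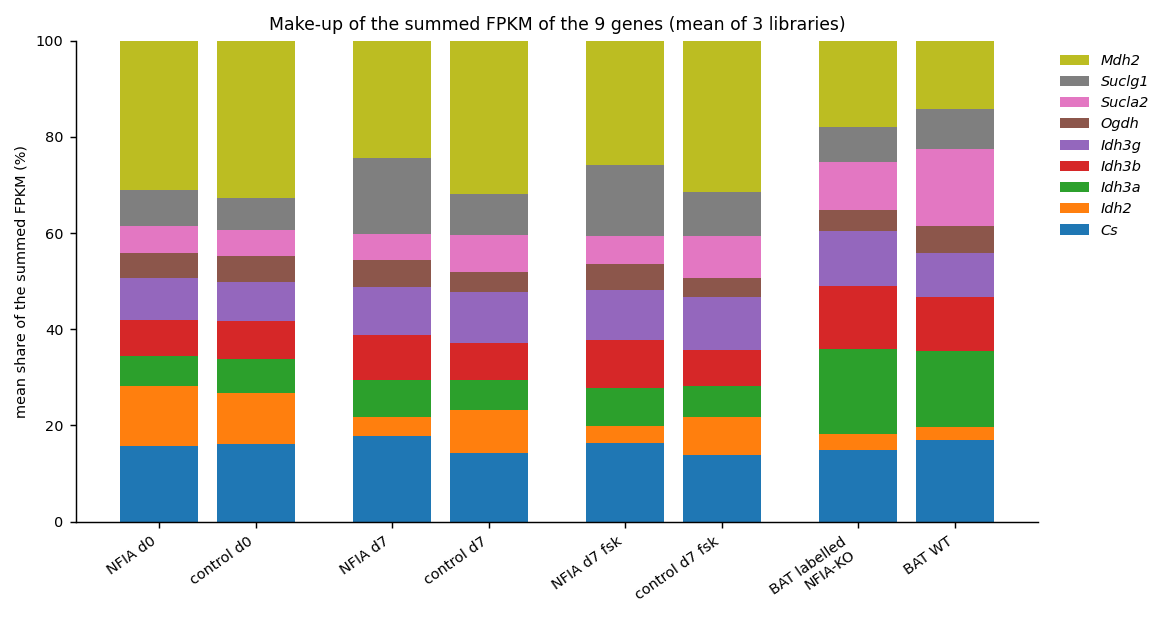
Stacked bars of the mean share, in percent, that each of the 9 genes makes up of their summed FPKM in each group of 3 libraries. Mdh2 takes the largest share in cells, Suclg1 is widest in NFIA cells at day 7, and Sucla2 is widest in WT BAT.

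Of 8 other genes of the cycle, 3 were called higher and 0 lower in NFIA cells at day 7, with a median of 0.31. Among all genes tested, 26.1% were called higher and 29.4% lower. Suclg2, the GTP-forming beta subunit, rose most (0.85 ± 0.06, 13.2, 12.7 and 13.2 FPKM in NFIA cells and 6.79, 6.79 and 6.81 FPKM in control cells). Sdha of succinate dehydrogenase (0.75 ± 0.15) and Dld, the dehydrogenase subunit shared with the pyruvate complex (0.55 ± 0.08), rose as well. Dlst, Sdhb, Sdhc, Sdhd and Fh1 did not pass.

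Genes of pyruvate entry, which feed acetyl-CoA to the cycle, moved in both directions: 9 of 13 were called higher and 3 lower, with a median of 0.56. The shares over all genes tested were 26.1% higher and 29.4% lower. Mpc1, a subunit of the mitochondrial pyruvate carrier, averaged 248 ± 18.7 FPKM in NFIA cells and 37.0 ± 5.90 FPKM in control cells (2.72 ± 0.16, SD, n = 3). Among the kinases that switch off pyruvate dehydrogenase, Pdk4 rose by 2.41 ± 0.08, with 87.5, 85.4 and 77.8 FPKM in NFIA cells and 15.0, 14.4 and 15.4 FPKM in control cells, while Pdk3 was lower (-2.33 ± 0.17). Mpc2, the other subunit of the carrier, rose by 1.60 ± 0.26. Of 18 cytosolic counterparts and side reactions, 8 were called higher and 6 lower, against those same shares of all genes, with a median of 0.21. The largest were Slc25a10, the dicarboxylate carrier (5.33 ± 0.23), Pcx, pyruvate carboxylase, which refills oxaloacetate (4.72 ± 0.11), Acly, ATP citrate lyase (2.57 ± 0.07), and Aco1, the cytosolic aconitase (1.89 ± 0.06). Idh1, the cytosolic isocitrate dehydrogenase, was singled out after its values were seen: it averaged 246 ± 16.5 FPKM in NFIA cells and 75.5 ± 4.54 FPKM in control cells (1.69 ± 0.12), a direction opposite to that of Idh2.

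**Figure D5:**
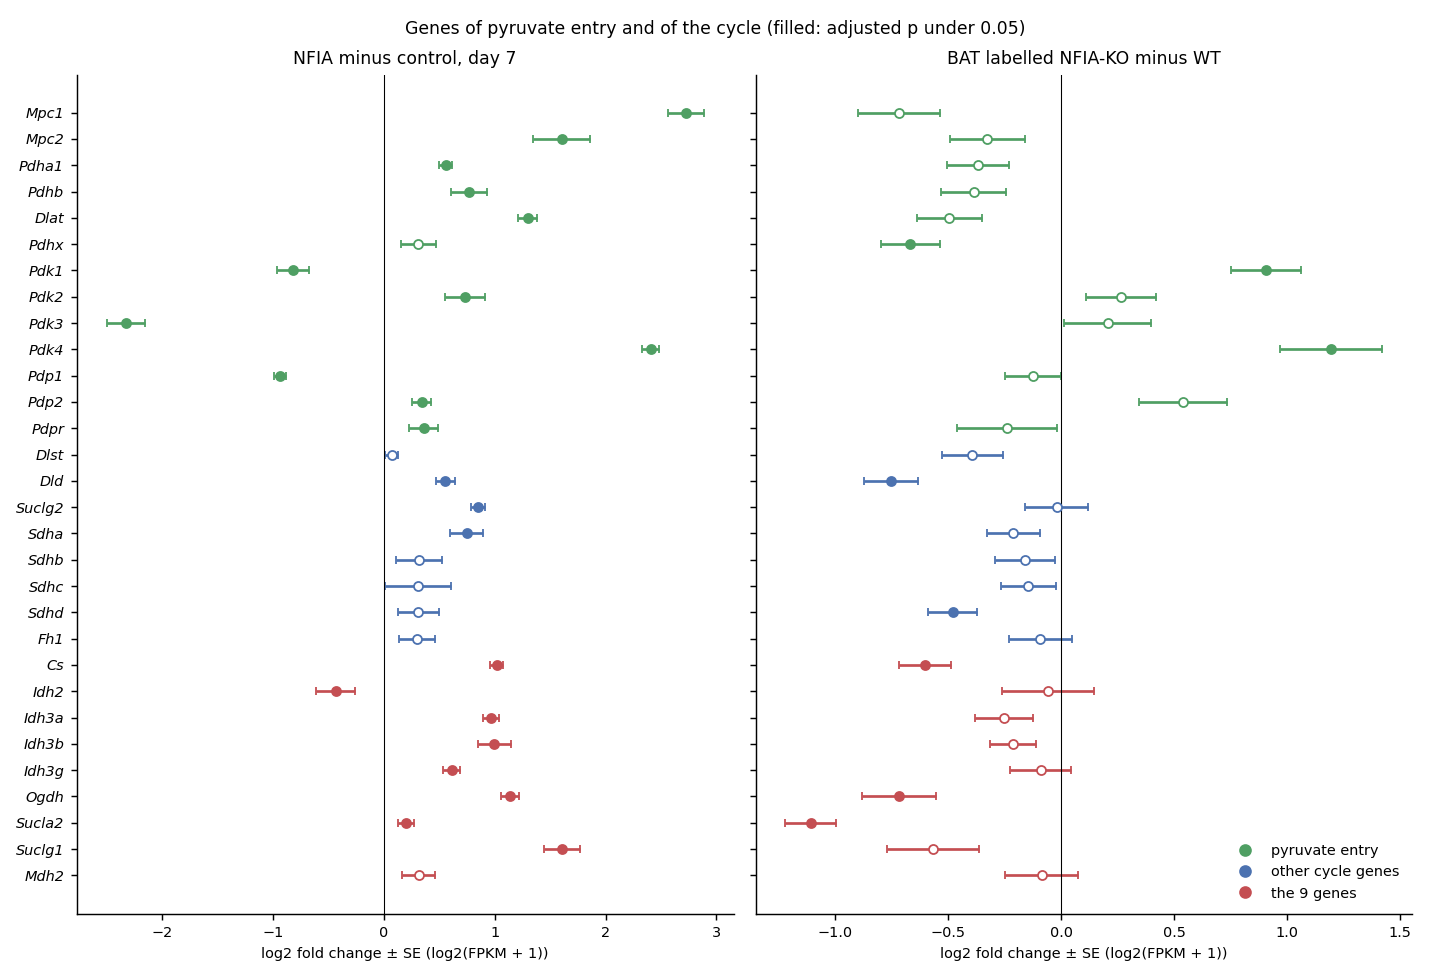
Log2 fold change with its standard error of 13 genes of pyruvate entry, 8 other cycle genes and the 9 genes described, for NFIA minus control cells at day 7 and for BAT labelled NFIA-KO minus WT BAT; filled points have an adjusted p under 0.05. Pdk4 is higher in both panels, and Sucla2 and Dld are the lowest of the cycle genes in tissue.

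In brown fat, 3 of the 9 genes were lower in the libraries labelled NFIA-KO and 0 were higher, against 3.55% lower and 3.59% higher of the 13618 genes tested. The median of the 9 was -0.25, against -0.02 over all genes. All 9 fitted differences were below 0. The 3 libraries of a group did not overlap for 5 genes, and 4 of the 9 had an unadjusted p under 0.05 by limma. How often either occurs among all genes was not counted, so these counts do not set the 9 apart. Nfia was not lower in the libraries labelled NFIA-KO, and their muscle markers were higher. WT replicate 3 was the lowest WT library for 8 of the 9 genes and has Fabp4, a fatty acid binding protein of adipocytes, listed at 0. Without it, 1 of the 9 was called, Sucla2.

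Sucla2 fell most, to 708, 724 and 662 FPKM in tissue labelled NFIA-KO, against 1646, 1515 and 1368 FPKM in WT tissue. Both groups are far apart. The difference was -1.11 ± 0.11 (adjusted p = 0.0105). Suclg2, its GTP-forming counterpart, had 23.1, 27.8 and 29.6 FPKM in tissue labelled NFIA-KO and 29.4, 27.5 and 24.5 FPKM in WT tissue (-0.02 ± 0.14, adjusted p = 0.938). Suclg1 had 499, 581 and 493 FPKM in tissue labelled NFIA-KO and 904, 915 and 563 FPKM in WT tissue. Its groups overlap through WT replicate 3, and the difference did not pass (-0.57 ± 0.20, adjusted p = 0.125).

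Cs had 971, 1116 and 1064 FPKM in tissue labelled NFIA-KO and 1746, 1569 and 1482 FPKM in WT tissue (-0.61 ± 0.12, adjusted p = 0.0359). Ogdh had 340.3, 307 and 273 FPKM in tissue labelled NFIA-KO and 618, 430.1 and 479.8 FPKM in WT tissue (-0.72 ± 0.16, adjusted p = 0.047). Both groups are apart for both genes. With no filter on low values none of the 3 called genes passed (adjusted p = 0.102 for Cs, 0.104 for Ogdh and 0.0531 for Sucla2). Cs was lost whichever library was left out (0.0503 to 0.167). Ogdh was lost in 5 of the 6 cases, all but WT replicate 2 (0.079 to 0.17). Sucla2 was lost only without WT replicate 1 (0.0763).

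The isocitrate dehydrogenase genes and Mdh2 did not pass in tissue. Idh3a had 1085, 1355 and 1269 FPKM in libraries labelled NFIA-KO and 1610.2, 1415 and 1386 FPKM in WT libraries (-0.25 ± 0.13, adjusted p = 0.237). Idh3b had 868, 939.6 and 943 FPKM in libraries labelled NFIA-KO and 1069, 1123 and 999 FPKM in WT libraries (-0.21 ± 0.10, adjusted p = 0.221). For both genes the libraries labelled NFIA-KO were the lower ones without overlap. Idh3g (-0.09 ± 0.13, 95% interval -0.41 to 0.23), Mdh2 (-0.09 ± 0.16, -0.47 to 0.30) and Idh2 (-0.06 ± 0.20, -0.54 to 0.42) overlapped between groups.

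Of the 8 other cycle genes, 2 were called lower in tissue labelled NFIA-KO and 0 higher. Among all genes tested in tissue, 3.55% were called lower and 3.59% higher. Dld had 328, 309 and 362 FPKM in tissue labelled NFIA-KO and 619, 514 and 558 FPKM in WT tissue (-0.76 ± 0.12, adjusted p = 0.0266). Sdhd, which anchors succinate dehydrogenase in the membrane, fell by 0.48 ± 0.11 (adjusted p = 0.0465). Of 13 genes of pyruvate entry, 2 were higher and 1 lower. Pdk4 had 1280.5, 1664 and 1020.2 FPKM in tissue labelled NFIA-KO and 573, 700.2 and 449 FPKM in WT tissue (1.20 ± 0.23, adjusted p = 0.0358), and Pdk1 rose by 0.91 ± 0.16 (adjusted p = 0.0291). Pdhx, the E3-binding protein of the pyruvate dehydrogenase complex, was lower (-0.67 ± 0.13, adjusted p = 0.0375). Of 17 cytosolic and side-reaction genes tested, Pck2 was called higher (0.99 ± 0.21) and Mdh1, the cytosolic malate dehydrogenase, lower (-0.76 ± 0.14). Of the muscle markers, 7 of the 10 tested were called higher in libraries labelled NFIA-KO, with a median of 3.30. Of 8 brown adipocyte markers 3 were called lower there, Ucp1, Cox8b and Elovl3, and 0 higher, with differences between -2.66 and 1.06. Of 7 general adipocyte markers 0 were called, with a median of -0.24 and differences between -2.27 and 4.27. Of 22 immune, endothelial, erythroid, smooth muscle and fibroblast markers tested, limma called 0, and 7 had an unadjusted p under 0.05. The share of all genes at that p was not counted. Of 3 nerve and glia markers tested 1 was called lower, S100b (-1.87 ± 0.34), and the 1 epidermis marker tested, Krt10, was lower too (-0.76 ± 0.14). Whether muscle RNA had a part in the cycle genes' values was not tested.

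The genes most like the mean of the 9 over the 8 group means, among 10155 compared, were Als2cl, Csl, Slc25a20, Hadh and Sh2b2, with Pearson r between 0.998 and 0.999. All of them were far higher in tissue than in cells, so the gap between these separate collections weighs heavily in r. Als2cl, ranked first, averaged only 2.11 FPKM in NFIA cells at day 7, and 16.7 FPKM in WT tissue. Hadh, which encodes an enzyme of mitochondrial beta oxidation, averaged 110 FPKM in NFIA cells at day 7, 46.2 FPKM in control cells at day 7, 854 FPKM in tissue labelled NFIA-KO and 1059 FPKM in WT tissue. Slc25a20, the carnitine-acylcarnitine carrier that brings fatty acids into the matrix, averaged 26.1, 13.1, 326 and 604 FPKM in the same 4 groups. Csl shares sequence with Cs, so its likeness may rest on shared reads, which was not tested.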

How the data were processed

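The data were 24 deposited tables of FPKM per gene, 1 per library, from polyadenylated RNA prepared with a stranded kit, per the labels' protocols. Per the submitters' processing notes, the tools were TopHat and Cufflinks and the build mm9. No version, parameter or annotation is stated there. The FPKM values deposited by the authors carry no read totals, so depth and counting error are unknown. Rows of a symbol at overlapping loci were summed, which left 37041 genes. Genes at 1 FPKM or more in at least 3 libraries of a fit were tested, 14351 in the 18 cell libraries and 13618 in the 6 tissue libraries, which were fitted apart. The test was limma 3.58.1 in R 4.3.3, moderated with a variance trend, two-sided, on log2(FPKM + 1). Adding 1 understates the change of low genes. P-values were adjusted by Benjamini-Hochberg over all genes of a fit and called under 0.05. The test was run on simulated data for NFIA against control cells at day 7 and for tissue. The simulated libraries varied independently, so an offset shared by same-numbered libraries was not part of that check.

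Groups came from the labels. Ratios were compared with exact permutation tests. The 9 genes and the other lists were chosen with earlier results of these data known. All 9 genes are described in each comparison. Shares of all genes at an unadjusted p under 0.05, or with libraries that do not overlap, were not counted. From every other list the text names up to 4 called genes with the largest fold changes and libraries that do not overlap. The genes most like the 9 were ranked by the correlation of group means, among genes whose means had an SD of at least 0.3. The symbols Mpc1 and Mpc2 stand in the files under older names. Alternatives were a pseudocount of 0.1, no filter on low values, median-of-ratios rescaling, quantile normalization, the libraries with numbered titles alone, a replicate block and leaving out each library. The date in the column header as a term was added after seeing the data. A comparison of protein sequences was not run. A gene of the other cycle genes is not reported here.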

Additional observations from a re-analysis of the deposited data

Results flagged for a closer look

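The effect of NFIA on 6 of the 9 genes differed between day 7 and day 0 by the interaction term of the limma fit. On the log2 scale, the effect at day 7 minus that at day 0 was 1.14 for Cs, 1.22 for Idh3a, 1.20 for Idh3b, 0.55 for Idh3g, 1.35 for Ogdh and 1.5 for Suclg1. At day 0 all 3 libraries of NFIA cells lay below those of control cells for Cs, Idh3a and Ogdh, and at day 7 all 3 lay above them. At day 0 limma called only Idh3a of these, a call that several alternatives lost. Cs and Ogdh did not pass (adjusted p = 0.189 and 0.0859), though they did with header date as a term. Groups of 3 libraries were too small to look for a single library far from the others.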

How the results depend on the processing

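Counts below are of the 9 genes called. For NFIA against control cells at day 0 the count was 1. It was 4 with header date as a term (Cs, Idh3a, Idh3b and Ogdh lower), 2 with the libraries with numbered titles alone, 3 after quantile normalization, and 0 to 1 with a library left out. It was 0 without control replicate 1 or 3 or NFIA replicate 2. For day 7 against day 0 in control cells, 7 were called after quantile normalization, against 4. For forskolin in NFIA cells the count of 0 became 1 with header date, 1 with the numbered libraries and 4 after quantile normalization. The NFIA effect by forskolin had 1 after quantile normalization (Suclg1), against 0. In tissue the count of 3 became 0 with no filter and 0 to 2 with a library left out: 1 without any library labelled NFIA-KO or without WT replicate 3, 0 without WT replicate 1 and 2 without WT replicate 2. No called value changed sign under any alternative run. The cause of these moves was not tested.

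Replicate numbers were not taken as pairs in the main fit, because the correlations of same-numbered libraries were not all above 0. Same-numbered cell libraries deviated together with correlations of 0.1847 to 0.444 for number 1, 0.0265 to 0.303 for number 2 and -0.0359 to 0.2773 for number 3. In tissue the correlations were -0.0091, 0.1108 and 0.1429. Still, 15 of 18 cell and 4 of 6 tissue libraries were closest to their own number. Same-numbered cell libraries, above all those of number 1, thus shared part of their deviation, which the main fit leaves in the spread. The fit with a replicate block called 5 of the 9 genes at day 0 (1 higher, 4 lower), 1 for forskolin in NFIA cells (Idh2) and 2 in tissue (Ogdh and Sucla2; Cs had an adjusted p of 0.0627).

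Over all genes, 570 were called for forskolin in control cells, 1343 with header date, 1260 with the replicate block and 361 to 447 with a library left out. For NFIA by forskolin 2890 became 5149 with header date, 5041 with the block and 4556 with the numbered libraries. At day 0, 3036 became 5303 with header date, 5159 with the block and 3170 after quantile normalization. For forskolin in NFIA cells 4681 became 6992 with header date and 6898 with the block. In tissue 973 became 799 with the block, 40 with no filter and 19 to 1361 with a library left out.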
